A study of Homo sapiens with 4 samples.

Results

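The transcripts described here are those of 37 genes that carry glucose to pyruvate and lactate or into the mitochondrion. They were chosen by gene symbol, and each symbol matched 1 row, so 37 of the 63241 rows of the count table were members. RNA was sequenced from FT190, a human epithelial line known as an immortalised line of the fallopian tube secretory epithelium and labelled as an ovarian epithelial cell. The controls, 2 libraries, carried PLKO, and the other 2 libraries came from cells with 1 short hairpin RNA (shRNA, labelled SMARCA4_sh1) that targets SMARCA4, an ATPase of SWI/SNF (BAF) chromatin remodellers. All cells carry the genotype label WT and were grown in RPMI without pyruvate, with serum and glutamine. The comparison has 1 line and 1 hairpin. Nothing in the labels ties the 2 libraries of a group to separate cultures. The p-values therefore measure only how far these libraries spread, which may be technical.

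Glycolysis splits glucose into pyruvate in the cytosol with a net gain of ATP. Lactate dehydrogenase then reduces pyruvate to lactate, which leaves the cell through monocarboxylate transporters, or pyruvate enters the mitochondrion through its carrier and is oxidised by the pyruvate dehydrogenase complex. Several steps are encoded by paralogs with different tissue patterns and regulation, and many of the genes are textbook targets of the hypoxia-inducible factor HIF-1 and of MYC.

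Library totals were between 27137414 and 33641343 counts. SMARCA4 stood at 171 and 162 CPM without the hairpin and 34.0 and 36.3 CPM with it (CPM, counts per 1e+06 counts of the genes tested, scaled between libraries), a log2 fold change of -2.24 ± 0.052 (± standard error; adjusted p = 1.86e-07). Of the markers of the labelled cell type, KRT7, KRT8 and KRT18 were at 596, 759.6 and 367 CPM in the controls and PAX8 at 58.6 CPM, while EPCAM was at 0.477, KRT19 at 0.138 and the secretory marker OVGP1 at 0.2 CPM. Of the 10 epithelial and secretory markers 8 were tested, of which WT1 rose and KRT7, KRT8 and KRT18 fell. The summed level of the 10 went from 1747 to 1853 CPM in the controls to 1262 to 1265 CPM in the shRNA libraries. Ciliated and endothelial markers summed to at most 1.12 CPM in every library. Of 6 immune markers 4 stayed under 1 CPM, the leucocyte marker PTPRC among them. The macrophage marker CD68, at 23.03 CPM, made up nearly all of the immune sum. Of 6 fibroblast and smooth muscle markers 4 fell and 0 rose, with COL1A1 at 1986 CPM in the controls, DCN at 0.031 and COL1A2 at 0.292 CPM, and a summed level of 2250 to 2303 CPM in the controls and 1675 to 1804 CPM in the shRNA libraries. These marker levels moved with the comparison, and their part in the results below was not tested. In bulk RNA, fewer cells of a type and less RNA per cell cannot be told apart.

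Transcripts of the enzymes from hexokinase 1 to lactate dehydrogenase were largely lower in the shRNA cells, mostly by less than 1.5-fold, while those of the glucose transporters SLC2A1 and SLC2A3, of PFKFB2 and of the lactate transporter SLC16A1 were higher. Of the 37 members 36 passed the filter on low counts, and among these the lowest count in any library was 20, for ALDOC. Tested with edgeR (quasi-likelihood F test; Benjamini-Hochberg over 18781 genes; threshold 0.05), 23 of the 36 fell, 4 rose and 9 did not pass. Of all genes tested, 29.7% passed, 15.8% falling and 13.8% rising, so the share of members that fell (63.9%) was above the background and the share that rose (11.1%) was near it. Of the 2471 genes with at least 97.6 CPM in the controls, the median of the members tested, 28.8% fell and 16.6% rose. Scaled by library totals in place of trimmed means, 3621 genes rose and 2468 fell in place of 2596 and 2976, and 6 members rose and 21 fell. Without ENO3, PDK2 and SLC2A3, whose reads are uncertain, 21 of 33 fell and 3 rose. Those 33 still hold members that share exon bases with another counted gene, ALDOA, LDHB and GAPDH among them. Both shRNA libraries lay below both controls in 26 of the 36 members, against 33.5% of all genes, and above both in 6, against 32.4%. The median log2 fold change was -0.23 over the 36 members and -0.0045 over all genes tested, and 19 of the 23 falls were smaller than 1.5-fold. Counts of the 37 members took 1.56% and 1.57% of each control's counts, against 1.32% (library 1) and 1.33% (library 2) with the hairpin. Below, a value in brackets after a gene is its log2 fold change, shRNA over control, ± its standard error (2 libraries a group), and rose or fell is written only of members past that test.

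**Figure D1:**
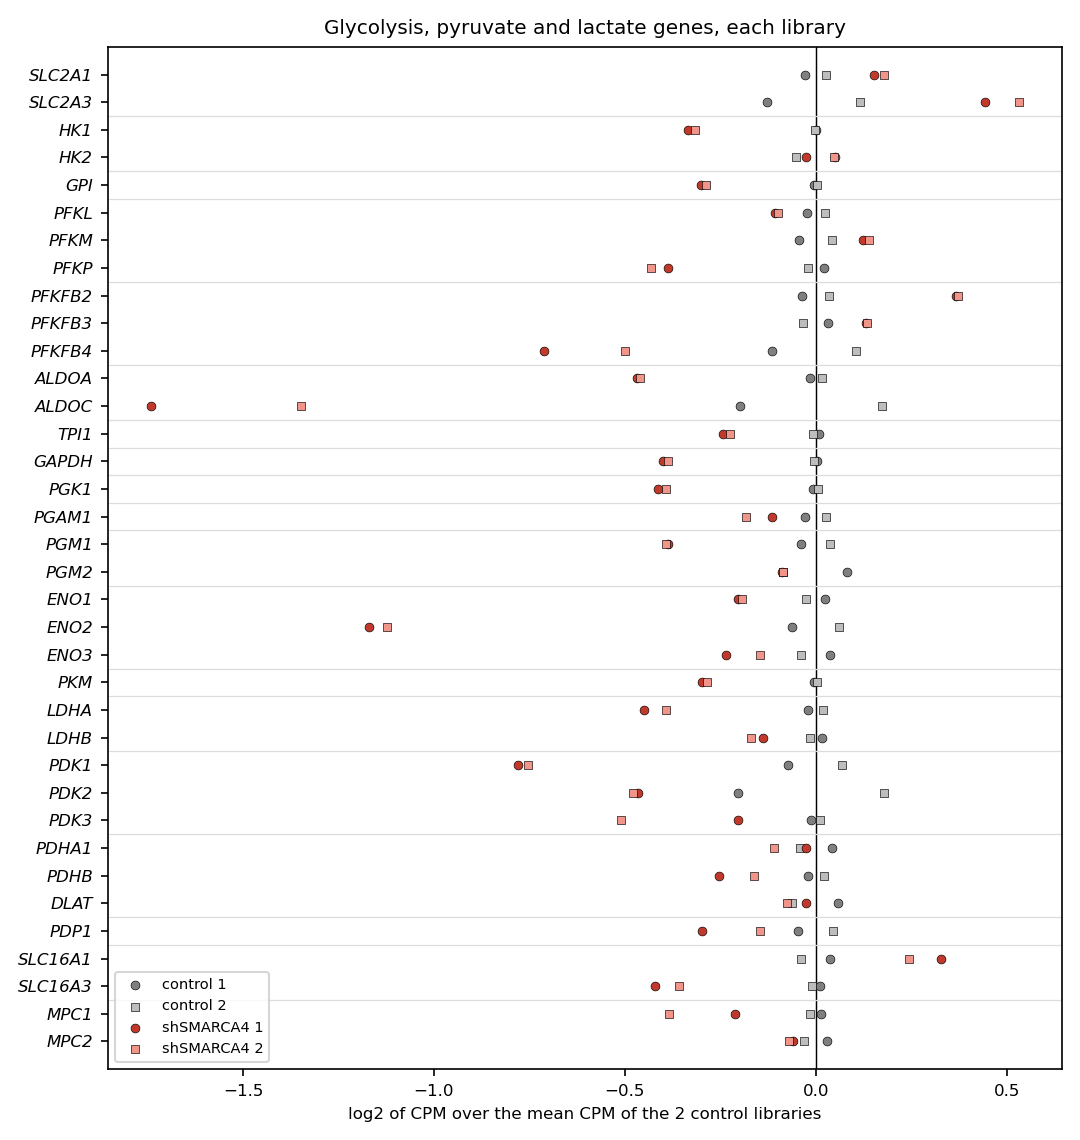
Level of each of the 36 members tested in each library, as the log2 of its CPM over the mean of the 2 controls (x axis), with members ordered by pathway step (y axis) and a point per library. In 26 members both shRNA libraries lie to the left of both controls, farthest in ALDOC and ENO2, and in 6 members, among them SLC2A3, PFKFB2 and SLC16A1, both lie to the right.

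**Figure D2:**
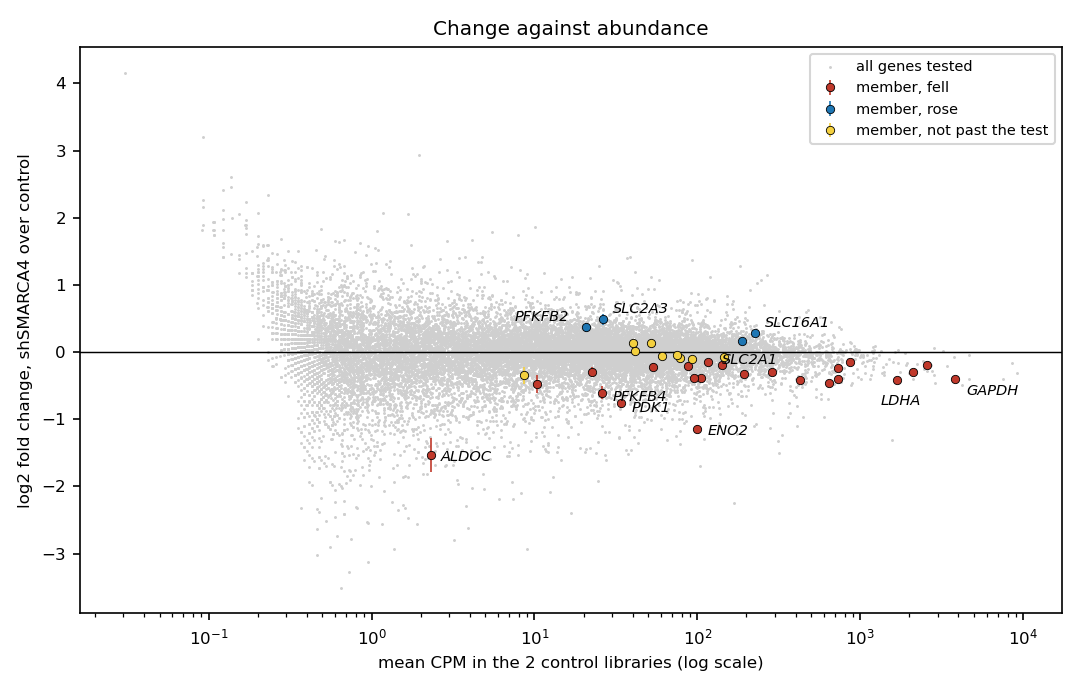
Log2 fold change, shRNA over control (y axis), against mean control CPM (x axis, log scale) for all 18781 genes tested (grey) and the 36 members (coloured by the call; bars are standard errors). Abundant members such as GAPDH and LDHA sit below 0 by less than 0.5, and ENO2, ALDOC and PDK1 sit lower.

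The sequences before the transcription start are shown for 4 members that fell and for SLC2A1, which rose, because the core ACGTG, to which HIF-1 and MYC family factors are known to bind in longer contexts, is a textbook feature of this gene group. They are the 250 bases upstream of the start, 5′ to 3′ on the gene's strand, from RefSeq on GRCh38.p14, and capitals mark ACGTG or its reverse complement CACGT.
ENO2, chr12:6914330-6914579, plus strand: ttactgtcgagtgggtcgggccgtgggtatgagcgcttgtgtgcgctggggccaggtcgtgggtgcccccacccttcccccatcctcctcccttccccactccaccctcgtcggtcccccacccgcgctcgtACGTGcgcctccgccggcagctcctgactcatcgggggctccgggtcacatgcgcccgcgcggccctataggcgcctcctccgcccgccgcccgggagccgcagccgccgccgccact
PDK1, chr2:172555840-172556089, plus strand: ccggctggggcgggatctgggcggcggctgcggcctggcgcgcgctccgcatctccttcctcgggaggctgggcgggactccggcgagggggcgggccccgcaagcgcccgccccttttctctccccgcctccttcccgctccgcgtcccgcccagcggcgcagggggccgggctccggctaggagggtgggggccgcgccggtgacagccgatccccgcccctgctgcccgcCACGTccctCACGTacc
LDHA, chr11:18394313-18394562, plus strand: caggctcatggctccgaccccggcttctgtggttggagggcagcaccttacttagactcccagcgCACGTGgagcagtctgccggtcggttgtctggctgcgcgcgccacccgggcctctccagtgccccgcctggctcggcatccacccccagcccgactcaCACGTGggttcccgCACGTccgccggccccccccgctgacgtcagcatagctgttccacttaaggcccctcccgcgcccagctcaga
PGK1, chrX:78103998-78104247, plus strand: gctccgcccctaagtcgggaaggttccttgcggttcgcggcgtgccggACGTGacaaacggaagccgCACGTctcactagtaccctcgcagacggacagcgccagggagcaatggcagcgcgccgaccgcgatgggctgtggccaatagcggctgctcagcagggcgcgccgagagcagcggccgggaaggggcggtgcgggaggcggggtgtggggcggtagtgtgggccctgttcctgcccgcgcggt
SLC2A1, chr1:42958869-42959118, minus strand: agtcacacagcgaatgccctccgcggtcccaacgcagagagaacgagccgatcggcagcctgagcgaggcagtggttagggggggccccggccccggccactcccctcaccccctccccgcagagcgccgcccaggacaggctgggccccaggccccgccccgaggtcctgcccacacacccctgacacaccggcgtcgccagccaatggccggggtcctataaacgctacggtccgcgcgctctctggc
In LDHA the core occurs 3 times, 2 of them within the palindrome CACGTG, which was counted once. ENO2 holds it 1 time, PDK1 and PGK1 2 times each, and SLC2A1 not in this window. RefSeq promoters were found for 33 members (not for SLC2A3, PFKFB2, PDP1 and SLC16A1), and for 28 of them the start lay within 500 bases of that of the transcript counted. Of these 28, 14 (50%) held ACGTG or CACGT, against 18.5% of all 35116 promoters in the table and 19.8% of those whose GC content was at least the members' median of 71.4%. By call, it stood in 9 of 18 that fell, in 5 of 9 that did not pass or were not tested, and in 0 of 1 that rose. The genes shown were picked by hand and do not stand for these groups. Every gene shown that fell holds the core, while HK1, PFKP, ENO1 and PKM, among others, fell without it in this window. Each member entered with 1 promoter, the nearest to the start counted, while the comparison took every promoter in the table without this choice. A match is a description of the letters and not a binding site.

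Both glucose transporters among the members rose. SLC2A1 (GLUT1), the basal glucose transporter of most cells, stood at 185 and 192 CPM without the hairpin and 209 and 213 CPM with it. Both shRNA libraries were above both controls, and it rose by 12.1% (0.17 ± 0.041; adjusted p = 0.0149). That call was lost without shRNA library 1 (0.19 ± 0.077), without shRNA library 2 (0.15 ± 0.077) and with no filter on low counts. SLC2A3 (GLUT3), a transporter with high affinity for glucose, stood at 24.1 and 28.5 CPM without the hairpin and 35.7 and 38.0 CPM with it and rose by 40.2% (0.49 ± 0.081; adjusted p = 0.00219). Raw counts for SLC2A3 were 790 and 920 counts without the hairpin and 1035 and 1049 with it. Its processed pseudogene SLC2A3P1, on another chromosome, held 840 and 732 counts without the hairpin and 676 and 667 with it and itself missed the threshold (-0.02 ± 0.075; adjusted p = 0.842), so how reads divided between the near-identical copies is uncertain. The share of SLC2A3 in the pair, per length, was 10.3% and 11.6% without the hairpin and 13.1% and 13.6% with it. The summed level of the 2 transporters was 61.3 and 64.6 CPM per kilobase without the hairpin and 71.6 and 73.4 with it. Other members of the SLC2A family, named after their values were seen, did not all move this way. SLC2A6, at 10.4 CPM in the controls, fell (-0.46 ± 0.13; adjusted p = 0.0247), and the inositol transporter SLC2A13, at 14.2 CPM, rose (0.43 ± 0.096; adjusted p = 0.0094). SLC2A8 (0.11 ± 0.13), SLC2A10 (0.10 ± 0.077) and SLC2A12 (0.03 ± 0.21) did not pass, and SLC2A4 was not tested.

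Hexokinase, which traps glucose as glucose 6-phosphate, was led by HK1. HK1, the widely expressed form, stood at 193 and 192 CPM without the hairpin and 153 and 155 CPM with it and fell by 20.2% (-0.33 ± 0.039; adjusted p = 3.90e-04). HK2, the form induced in muscle, fat and many tumours, stood at 42.96 and 40.1 CPM without the hairpin and 40.8 and 42.9 CPM with it; its groups overlapped (0.01 ± 0.057; adjusted p = 0.911). Per length, the HK1 share of the pair was 87.6% and 88.3% without the hairpin and 85.5% and 84.95% with it. GPI, which isomerises glucose 6-phosphate to fructose 6-phosphate, was at 286 and 288 CPM without the hairpin and 233 and 235 CPM with it, with both shRNA libraries below both controls, and fell by 18.4% (-0.29 ± 0.038; adjusted p = 5.66e-04). It shares 193 exon bases with another counted gene on the same strand that held 896 counts against 9394 for GPI in control 1.

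At phosphofructokinase 1, the committed step, only the platelet-type subunit passed the test. PFKP stood at 435 and 422 CPM without the hairpin and 327 and 318 CPM with it and fell by 24.7% (-0.41 ± 0.04; adjusted p = 1.25e-04). The liver-type subunit PFKL was at 90.9 and 93.9 CPM without the hairpin and 85.7 and 86.2 CPM with it (-0.10 ± 0.043) and the muscle-type subunit PFKM at 50.1 and 53.1 CPM without the hairpin and 56.2 and 56.8 CPM with it (0.13 ± 0.05). The PFKL libraries of the 2 groups did not overlap, lower in shRNA cells, nor did those of PFKM, higher in shRNA cells, and neither passed (adjusted p = 0.103 and adjusted p = 0.0806). PFKL passed without control 1 (-0.12 ± 0.048), and PFKM without control 2 (0.17 ± 0.056), with library totals and with the replicate block (0.13 ± 0.046). Of the 3 subunits per length, the PFKP share was 83.1% and 82.03% without the hairpin and 78.1% and 77.5% with it. The PFKM share was 8.79% and 9.47% without the hairpin and 12.3% and 12.7% with it, so the minor subunits took up a larger part in both shRNA libraries.

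The PFKFB enzymes set the level of fructose 2,6-bisphosphate, the activator of phosphofructokinase 1, and of their transcripts 1 fell, 1 rose and 1 did not pass. PFKFB4 stood at 24.1 and 28.1 CPM without the hairpin and 15.9 and 18.4 CPM with it and fell by 34.2% (-0.60 ± 0.098; adjusted p = 0.00186). PFKFB2, the form known from heart, stood at 20.2 and 21.2 CPM without the hairpin and 26.6 and 26.7 CPM with it and rose by 29.2% (0.37 ± 0.064; adjusted p = 0.00269). PFKFB3, the form with the highest kinase to phosphatase ratio, was at 41.3 and 39.5 CPM without the hairpin and 44.3 and 44.3 CPM with it and did not pass (0.13 ± 0.051; adjusted p = 0.0834), though it did without control 1 (0.17 ± 0.061) and with library totals. Their summed level per length was 19.1 and 19.97 CPM per kilobase without the hairpin and 18.3 and 19.1 with it, so the sums with the hairpin lay just below those without it, while the make-up moved further: PFKFB4 held 36.4% and 40.5% without the hairpin and 25.02% and 27.9% with it, PFKFB2 held 14.99% and 15.05% without the hairpin and 20.7% and 19.9% with it, and PFKFB3 held 48.7% and 44.5% without the hairpin and 54.3% and 52.2% with it.

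The phosphoglucomutases link glucose 6-phosphate with glucose 1-phosphate and so with glycogen. PGM1, the main form, stood at 103 and 109 CPM without the hairpin and 80.8 and 80.6 CPM with it and fell by 23.7% (-0.39 ± 0.045; adjusted p = 3.32e-04). PGM2, which prefers pentose phosphates, was at 82.3 and 73.2 CPM without the hairpin and 73.1 and 73.3 CPM with it, with groups that overlapped (-0.09 ± 0.059; adjusted p = 0.302), and it passed when control 2 was left out (-0.17 ± 0.05). Per length, the PGM1 share of the pair was 62.4% and 66.3% without the hairpin and 59.5% and 59.4% with it. The difference in mean share was -4.94 percentage points, and -3.01 without control 2.

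All 10 members from aldolase to pyruvate kinase fell, and in each of them both shRNA libraries lay below both controls. ALDOA, the aldolase of muscle and most proliferating cells, stood at 638 and 653 CPM without the hairpin and 466 and 469 CPM with it and fell by 27.5% (-0.46 ± 0.037; adjusted p = 5.11e-05). Its row shares 1307 exon bases with a second protein-coding row on the same strand that held 20644 and 20749 counts in the controls, so reads of this locus can count towards both rows. ALDOC, the brain aldolase, was scarce: 66 and 84 counts without the hairpin and 20 and 25 with it. It fell 2.89-fold (-1.53 ± 0.25; adjusted p = 0.00197), the largest log2 fold change among the members tested. Its share of aldolase transcripts per length was 0.247% and 0.312% without the hairpin and 0.116% and 0.151% with it.

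TPI1, which interconverts the triose phosphates, stood at 733 and 725 CPM without the hairpin and 616 and 624 CPM with it and fell 1.18-fold (-0.23 ± 0.037; adjusted p = 0.00161). GAPDH, the NADH-forming dehydrogenase often used as a reference transcript, was the 7th most abundant row by mean control CPM. It stood at 3844 and 3824 CPM without the hairpin and 2903 and 2931 CPM with it and fell by 23.9% (-0.39 ± 0.036; adjusted p = 9.00e-05), a change that exceeded the gap between the libraries of each group. ENO1, PKM and LDHA were the 18th, 22nd and 31st. The strand opposite GAPDH carries a long non-coding RNA that shares 422 exon bases with the GAPDH gene and held 22126 and 21327 counts in the controls, and the counting did not use strand. The 65 annotated pseudogenes of GAPDH together held 174 to 261 counts a library, 0.209% of the GAPDH count in the controls.

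PGK1, the first ATP-forming step (chrX:78104248-78129295, plus strand), stood at 729 and 736 CPM without the hairpin and 550.0 and 558 CPM with it and fell by 24.4% (-0.40 ± 0.037; adjusted p = 9.47e-05). PGAM1, the mutase that follows, was at 114 and 119 CPM without the hairpin and 108 and 103 CPM with it and fell by 9.77% (-0.15 ± 0.045; adjusted p = 0.0358). The PGAM1 call was lost without shRNA library 1 (-0.18 ± 0.08), without shRNA library 2 (-0.11 ± 0.08), with library totals, with no filter and with DESeq2.

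All 3 enolase rows fell, ENO2 by the largest fold, a difference between genes that was not tested. ENO1, the form of most tissues, stood at 2612 and 2522 CPM without the hairpin and 2228 and 2246 CPM with it and fell by 12.9% (-0.20 ± 0.038; adjusted p = 0.00428), a call lost without shRNA library 1 (-0.18 ± 0.078). ENO2, the neuronal form (chr12:6914580-6923697, plus strand of hg38), stood at 95.5 and 104 CPM without the hairpin and 44.3 and 45.8 CPM with it. The shRNA libraries held less than 50 CPM and the controls more than 95, and ENO2 fell by 54.9% (-1.15 ± 0.055; adjusted p = 4.27e-06). Of the summed level of these 2 genes per length, the ENO2 share was 2.84% and 3.18% without the hairpin and 1.56% and 1.6% with it. ENO3, the muscle form, was counted at 146 and 138 CPM without the hairpin and 121 and 129 CPM with it and fell by 12.3% (-0.19 ± 0.048; adjusted p = 0.0171). Part of that count cannot be told apart from its neighbour's: the transcript counted shares 111 of its 714 exon bases with PFN1 (profilin 1), an actin-binding protein encoded on the opposite strand. PFN1 held 17.4 counts per exon base in control 1 against 6.71 for ENO3, and its change was of the same size (-0.19 ± 0.041; adjusted p = 0.008). The ENO3 call was also lost without shRNA library 1 (-0.14 ± 0.079) and with no filter on low counts.

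PKM encodes both splice forms of pyruvate kinase, M1 and M2, which 1 count per gene does not separate. It stood at 2100.2 and 2112 CPM without the hairpin and 1715 and 1729 CPM with it and fell by 18.3% (-0.29 ± 0.036; adjusted p = 4.64e-04).

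**Figure D3:**
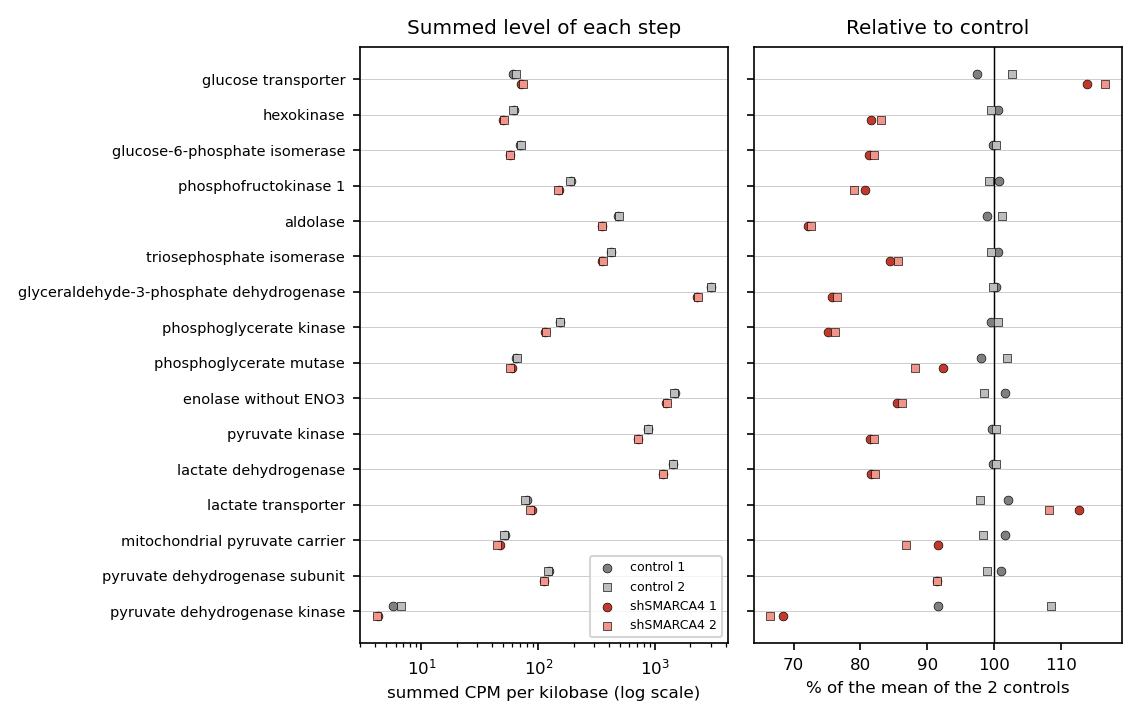
Summed CPM per kilobase of the members of each step (left, log scale) and the same as a percentage of the mean of the 2 controls (right), with a point per library. The shRNA libraries stand at 75.1% and 76.1% of the control mean for phosphoglycerate kinase and at 114% and 117% for the glucose transporters; ENO3 is left out of the enolase sum.

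Per length, the summed transcripts of a step were most abundant at glyceraldehyde-3-phosphate dehydrogenase, enolase and lactate dehydrogenase. The level was 3031 and 3016 CPM per kilobase without the hairpin and 2289 and 2312 with it for glyceraldehyde-3-phosphate dehydrogenase, 1484 and 1438 CPM per kilobase without the hairpin and 1249 and 1259.6 with it for enolase without ENO3 and 61.7 and 61.1 CPM per kilobase without the hairpin and 50.1 and 51.02 with it for hexokinase. The ratio of the shRNA mean to the control mean was 0.823 at hexokinase, 0.799 at phosphofructokinase 1, 0.724 at aldolase, 0.902 at phosphoglycerate mutase, 0.817 at pyruvate kinase and 0.819 at lactate dehydrogenase. The sums and the paralog shares are given as values with no test. An exact permutation test cannot go below p = 0.333 with 2 libraries against 2, so none was run.

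Both lactate dehydrogenase subunits fell, LDHA more than LDHB by fold change, a difference between genes that was not tested. LDHA, the subunit that favours reduction of pyruvate to lactate (chr11:18394563-18408425, plus strand), stood at 1659.7 and 1706 CPM without the hairpin and 1232 and 1282 CPM with it and fell by 25.3% (-0.42 ± 0.04; adjusted p = 1.09e-04). LDHB, the heart-type subunit, stood at 874 and 855 CPM without the hairpin and 786 and 769 CPM with it and fell by 10.1% (-0.15 ± 0.038; adjusted p = 0.0147). The LDHB call was lost without shRNA library 1 (-0.16 ± 0.078), without shRNA library 2 (-0.14 ± 0.077) and with no filter, and its row shares 891 exon bases with a second row on the same strand that held 25482 counts in control 1. Per length, the LDHA share of the pair was 52.3% and 53.6% without the hairpin and 47.6% and 49.1% with it. LDHB thus held the larger share in both shRNA libraries only per length. In CPM, not divided by length, LDHA stayed above LDHB in every library.

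The 2 lactate transporters moved in opposite directions. SLC16A1 (MCT1), which carries lactate in or out, stood at 231 and 219 CPM without the hairpin and 282 and 266 CPM with it and rose by 21.9% (0.29 ± 0.046; adjusted p = 0.0018). SLC16A3 (MCT4), the exporter of strongly glycolytic cells, stood at 96.1 and 94.8 CPM without the hairpin and 71.3 and 74.4 CPM with it and fell by 23.7% (-0.39 ± 0.045; adjusted p = 3.18e-04). The SLC16A1 share of their sum per length was 75.1% and 74.4% without the hairpin and 83.3% and 81.8% with it, and the sum itself was 80.1 and 76.8 CPM per kilobase without the hairpin and 88.3 and 84.8 with it.

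Of 10 members for pyruvate entry into the mitochondrion and its oxidation 9 were tested. Of these, 5 fell (55.6%, against 15.8% of all genes tested) and 0 rose. PDK1, a kinase that switches the pyruvate dehydrogenase complex off and a known HIF-1 target, stood at 32.3 and 35.6 CPM without the hairpin and 19.8 and 20.1 CPM with it. Each shRNA library was below 21 CPM and each control above 32, and PDK1 fell by 41.2% (-0.77 ± 0.069; adjusted p = 8.89e-05). PDK2 stood at 8.93 and 11.7 CPM without the hairpin and 7.46 and 7.39 CPM with it and fell by 27.8% (-0.47 ± 0.14; adjusted p = 0.0281), a call lost without control 2 (-0.27 ± 0.12) and with no filter. The transcript counted for PDK2 shares 2113 of its 3440 exon bases with SAMD14 on the opposite strand, which held 103 counts in control 1 against 293 for PDK2, so the PDK2 counts are uncertain. PDK1 shares 258 exon bases with its antisense gene PDK1-AS1, which held 174 and 185 counts without the hairpin and 195 and 194 with it and missed the threshold (0.32 ± 0.11; adjusted p = 0.0659). PDK3 stood at 8.6 and 8.74 CPM without the hairpin and 7.52 and 6.09 CPM with it and did not pass (-0.35 ± 0.12; adjusted p = 0.0602). It passed without control 1 (-0.35 ± 0.12), without control 2 (-0.33 ± 0.12), without shRNA library 1 (-0.50 ± 0.17) and with the replicate block (-0.35 ± 0.11). PDK4, the kinase induced in fasting, had 3 and 2 counts without the hairpin and 1 and 0 with it and was not tested. The PDK1 share of the summed kinase level per length was 40.5% and 37.7% without the hairpin and 33.2% and 34.8% with it. That sum was 5.67 and 6.72 CPM per kilobase without the hairpin and 4.24 and 4.12 with it; the transcripts counted for PDK1 and PDK3 are 14051 and 12697 bases long, which lowers their level per length.

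Of the complex itself, PDHB, the E1 beta subunit, stood at 86.6 and 89.2 CPM without the hairpin and 73.7 and 78.6 CPM with it and fell by 13.4% (-0.21 ± 0.048; adjusted p = 0.0115), a call lost without shRNA library 1 (-0.15 ± 0.081) and with no filter. The E1 alpha subunit PDHA1 stood at 151 and 142 CPM without the hairpin and 144 and 136 CPM with it (-0.07 ± 0.048; adjusted p = 0.34) and the E2 subunit DLAT at 78.4 and 72.1 CPM without the hairpin and 73.97 and 71.4 CPM with it (-0.05 ± 0.053; adjusted p = 0.519). Their groups overlapped and neither passed, although PDHA1 did without control 2 (-0.11 ± 0.042). ALDOC, DLAT and PDHB also share exon bases with opposite-strand genes, so 10 members in all overlap another counted gene. PDP1, the phosphatase that switches the complex back on, stood at 51.9 and 55.3 CPM without the hairpin and 43.6 and 48.4 CPM with it and fell by 14.2% (-0.22 ± 0.062; adjusted p = 0.0258). Its call was lost without shRNA library 1 (-0.14 ± 0.088), with library totals, with no filter and with DESeq2. The mitochondrial pyruvate carrier is a heterodimer of MPC1 and MPC2. MPC1 stood at 22.8 and 22.3 CPM without the hairpin and 19.5 and 17.3 CPM with it and fell by 18.4% (-0.29 ± 0.077; adjusted p = 0.0193), a call lost without shRNA library 2 (-0.21 ± 0.12), with no filter and with DESeq2. MPC2 stood at 61.7 and 59.2 CPM without the hairpin and 58.02 and 57.6 CPM with it and did not pass (-0.06 ± 0.047; adjusted p = 0.345).

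**Figure D4:**
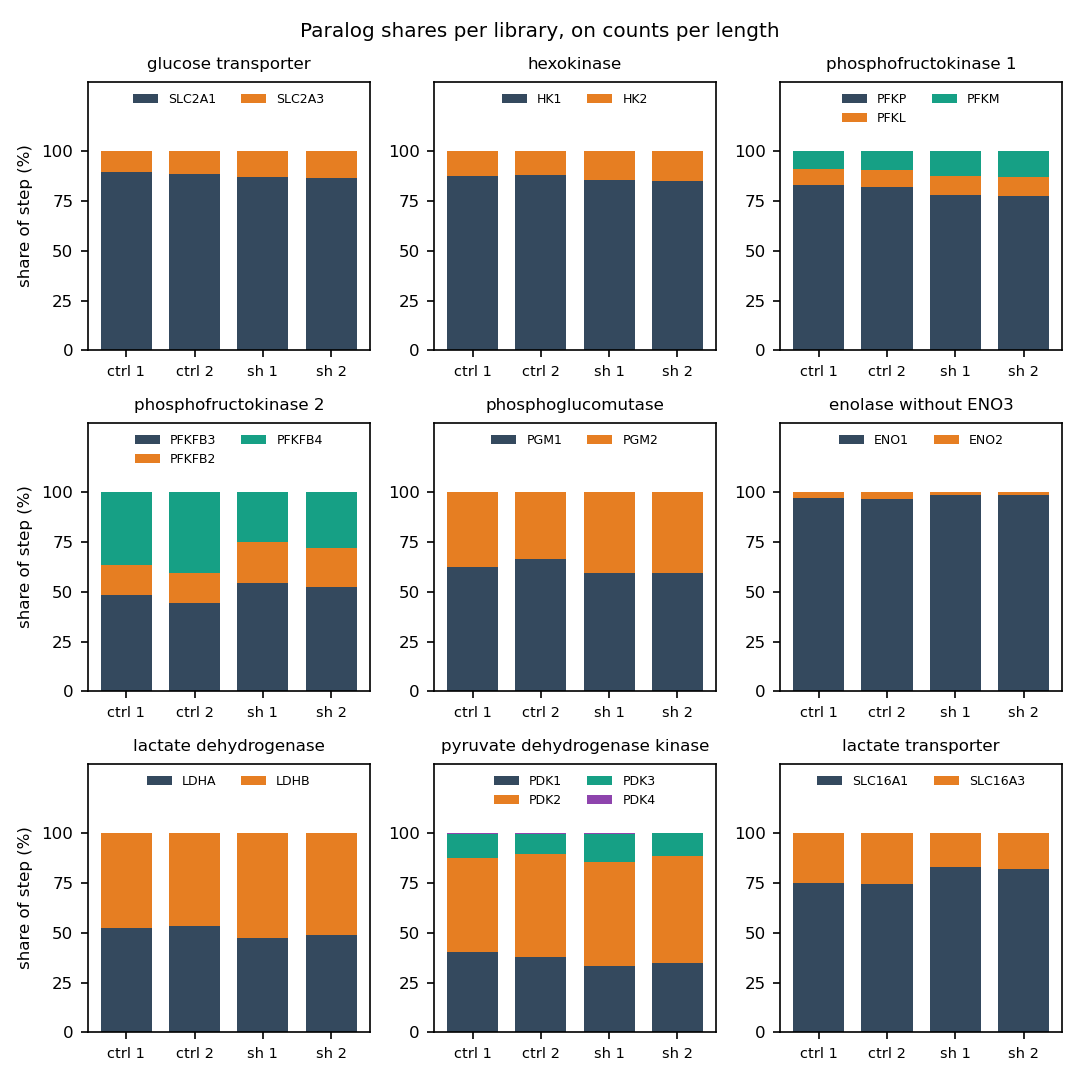
Share of each paralog in its step (stacked bars, % of summed counts per length) in each library, 2 controls and 2 shRNA libraries, for 9 steps. SLC16A1 goes from 75.1% and 74.4% without the hairpin to 83.3% and 81.8% with it, and PFKFB4 from 36.4% and 40.5% to 25.0% and 27.9%.

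Among the other genes of glycolysis and pyruvate metabolism, 35 were listed and 24 tested. Of these, 7 fell (29.2%) and 5 rose (20.8%), against 15.8% and 13.8% of all genes tested. Their median was 0.07 on the log2 scale. The hexokinase-like HKDC1 (-0.64 ± 0.084), the lactate and pyruvate transporter SLC16A7 (MCT2; -0.45 ± 0.062) and the mitochondrial phosphoenolpyruvate carboxykinase PCK2 (-0.63 ± 0.1) fell, and the ADP-dependent glucokinase ADPGK (0.43 ± 0.058) rose. BSG (basigin), the chaperone of MCT1 and MCT4, was at 414 CPM in the controls and 389 CPM in shRNA cells and did not pass (adjusted p = 0.106). It was named after its values were seen, as were PDHX, PDP2, HIF1A, ARNT and VEGFA below. The subunit PDHX (0.29 ± 0.06) of the pyruvate dehydrogenase complex and its second phosphatase PDP2 (0.30 ± 0.066) rose, while PDHB and PDP1 fell.

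Regulators of the pathway changed in both directions. Of 25 transcription factors and regulators tested, 5 rose (20%) and 6 fell (24%), with a median of 0.03. Of all genes tested, 13.8% rose and 15.8% fell. MYC (0.70 ± 0.049), TXNIP (0.43 ± 0.053), which restrains glucose uptake, and KLF4 (0.67 ± 0.13) rose, and EPAS1 (HIF-2 alpha; -0.45 ± 0.067) fell. HIF1A stood at 1169 and 1171 CPM without the hairpin and 1077 and 1072 CPM with it and fell by 8.14% (-0.12 ± 0.036; adjusted p = 0.0311), and its partner ARNT stood at 56.8 and 64.5 CPM without the hairpin and 52.1 and 52.7 CPM with it (-0.21 ± 0.064; adjusted p = 0.0343). Of 19 other hypoxia targets tested, 9 fell (47.4%) and 2 rose (10.5%), with a median of -0.31. The mitophagy receptors BNIP3 (-0.59 ± 0.062) and BNIP3L (-0.72 ± 0.086) and the matrix enzyme LOX (-1.38 ± 0.05) fell. ANGPTL4 (2.94 ± 0.13) and VEGFA (0.28 ± 0.083) rose. MXI1 and EGLN3 stand in both lists, and no list has a test of its own here.

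**Figure D5:**
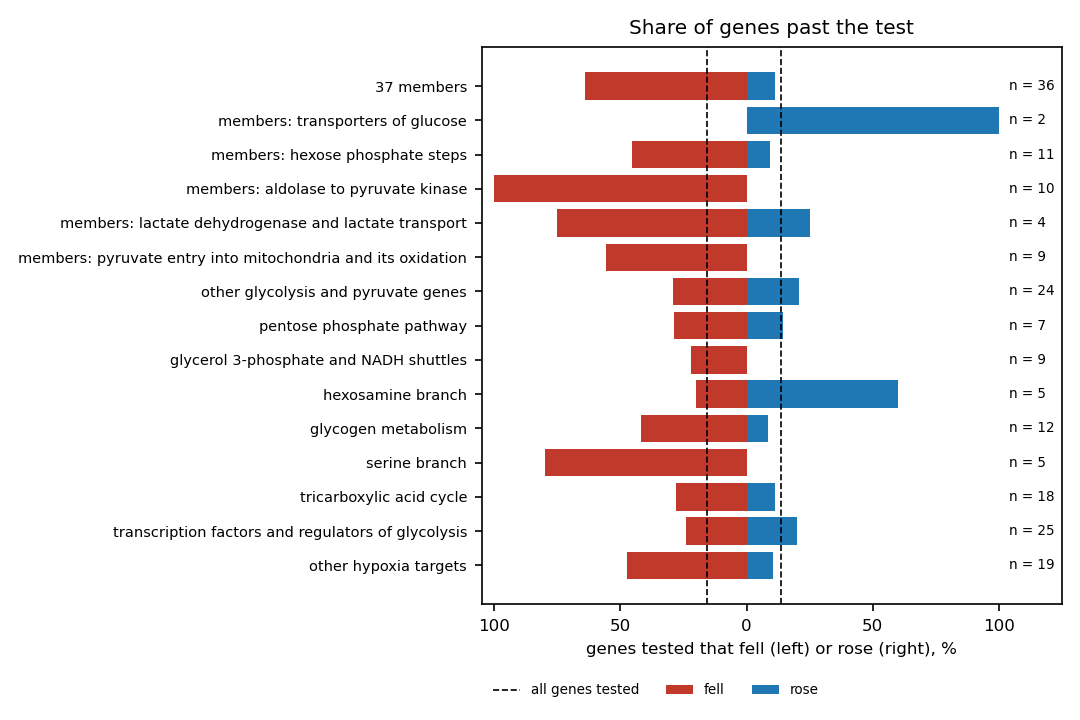
Share of tested genes that fell (left, red) and rose (right, blue) in the 37 members, their 5 blocks and the related lists, with the number tested at the right and dashed lines at the shares over all genes tested (15.8% fell, 13.8% rose). The bar of aldolase to pyruvate kinase covers 10 of 10 genes tested that fell, and the bar of the other glycolysis and pyruvate genes 7 of 24.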

How the data were processed

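Per the file header, the authors counted reads over exons with HOMER (analyzeRepeats), using hg38 and GENCODE release 45, on both strands, with 1 transcript kept per gene and no normalization. Reads were aligned with STAR 2.6.1c, per the submitters' processing notes. These deposited counts were used as they stand for 4 samples, with 0 other value columns in use. Exon lengths come from the same deposited table. Groups and replicate numbers came from the sample titles.

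Genes were kept by filterByExpr (count minimum 10; 18781 kept, 44460 removed), scaled by TMM, the trimmed mean of M values (0.976 to 1.02), and tested with edgeR 4.0.16 in R 4.3.3 (two-sided; glmQLFit and glmQLFTest). P-values were adjusted by Benjamini and Hochberg's method, with 0.05 as the threshold, and each standard error was taken as |log2 fold change| divided by the root of F. CPM are counts per 1e+06 of the scaled total of genes kept. Levels per length divide CPM by the exon length of the transcript counted, and paralog shares use counts per length. Exon overlaps were read from GENCODE release 29, which lacks the PKM and PFKP transcripts counted. Pairs with a transcript absent from release 29 could not be read. Its exon lengths differ from those counted for GPI (2040 against 4090 bases), GAPDH (1875 against 1268) and DLAT (4458 against 3851). The overlaps of these genes may therefore differ in the transcripts counted. Within groups, chi-square per degree of freedom was 6.94 (controls) and 1.96 (shRNA), above sampling noise.

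The members and lists were chosen with earlier results of these data known, so no count of members is independent evidence. All 37 members are named, with up to 4 genes a related list by adjusted p. Alternatives were DESeq2 1.42.0, limma-voom (limma 3.58.1), scaling by RLE, upper quartiles or library totals, a 1 CPM minimum or none, a replicate block, and each library left out.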

Additional observations from a re-analysis of the deposited data

How the results depend on the processing

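Of 27 called members, 18 kept their call under all 12 alternatives and 9 lost it under at least 1, each named above; 6 members that did not pass did so under at least 1. No called member changed sign. With no filter, SLC2A1 (0.17), ENO3 (-0.19), LDHB (-0.15), MPC1 (-0.29), PDHB (-0.20), PDK2 (-0.47), PDP1 (-0.22) and PGAM1 (-0.14) lost their call at log2 fold changes close to those above (edgeR adjusted p = 0.0508 to 0.163). So did MPC1 (-0.29), PDP1 (-0.22) and PGAM1 (-0.14) with DESeq2 (adjusted p = 0.067 to 0.138). With library totals PDP1 (-0.17) and PGAM1 (-0.10) lost it (edgeR adjusted p = 0.0629 and 0.128), and PFKM and PFKFB3 passed at 0.18 each. The count of members that fell was 16 with no filter on low counts, 20 with DESeq2 and 24 with the replicate block, and ranged from 18 to 25 without 1 library; the count that rose ranged from 3 to 5 without 1 library, with 5 under the block and 6 with library totals. The members' median was -0.21 with upper-quartile factors and -0.18 with library totals, where the median of all genes was 0.04, and ranged from -0.24 to -0.20 without 1 library. Over all genes 1403 rose and 1784 fell with no filter, 1625 and 1930 with DESeq2, and 3187 and 3562 with the replicate block. Without 1 library the numbers ranged from 1724 to 3618 that rose and from 2077 to 3828 that fell. An arm with 1 library left was assumed to vary like the other. The labels tie same-numbered libraries by their number only. Their deviations correlated at 0.08 across genes, which with 2 libraries a group cannot show whether they shared a culture or batch. The replicate block is given only here and beside the calls it changed. With pseudogene counts added, the SLC2A1 share of glucose transporters differed by -1.12 percentage points (shRNA minus control) in place of -2.39. With counts not divided by length, the HK1 share differed by -3.67 points (-2.71 per length), the ENO1 share of all 3 enolases by 1.56 (1.03 per length), the ENO2 share without ENO3 by -1.77 (-1.43 per length) and the PFKFB3 share by 3.85 (6.72 per length). Without control 2 the PGM1 share differed by -3.01 points in place of -4.94. Low counts limit ALDOC and PDK4. The cause of these shifts was not tested.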

Other observations

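Routes that branch from glycolysis changed in both directions. In the hexosamine branch, which makes UDP-N-acetylglucosamine, 3 of 5 genes rose and 1 fell. GFPT2 stood at 30.7 and 34.9 CPM without the hairpin and 65.6 and 68.7 CPM with it (1.03 ± 0.065). UAP1 (0.43 ± 0.068) and GNPNAT1 (0.23 ± 0.048) also rose, while GFPT1, the paralog of GFPT2, fell (-0.17 ± 0.053). In glycogen metabolism 5 of 12 tested genes fell and 1 rose. The branching enzyme GBE1 (-0.52 ± 0.044), the UDP-glucose pyrophosphorylase UGP2 (-0.42 ± 0.04), the synthase GYS1 (-0.33 ± 0.049) and the phosphatase subunit PPP1R3B (-0.52 ± 0.086) were among those that fell, and the phosphorylases PYGL (-0.03 ± 0.037) and PYGB (-0.02 ± 0.043), named after their values were seen, did not pass.

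In the serine branch 4 of 5 genes fell and 0 rose, among them PHGDH, which diverts 3-phosphoglycerate from glycolysis (-0.35 ± 0.081), and SHMT1 (-0.64 ± 0.052). Of 7 pentose phosphate genes, TKT (-0.22 ± 0.043) and PGLS (-0.22 ± 0.071) fell and RPIA (0.45 ± 0.079) rose. Of 18 genes of the tricarboxylic acid cycle 5 fell and 2 rose, with ACO1 (-0.52 ± 0.066) and OGDH (-0.36 ± 0.045) among those that fell. Of 9 tested genes of the glycerol 3-phosphate and NADH shuttles, GOT2 (-0.39 ± 0.041) and GPD2 (-0.14 ± 0.045) fell and 0 rose. Across all genes tested, 15.8% fell and 13.8% rose by edgeR's quasi-likelihood test.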
